A study of Bos taurus with 15 samples.

Results

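Of the 15 dominant follicle (DF) oocytes with deposited counts, 4 were not in the list of samples that the study kept after quality control and are called left out here: T1.4 among the 24 h oocytes, and T3.1, T3.3, T3.5 among the 2 h oocytes. Left-out values are listed in that order throughout. The other 11 (T1.1, T1.2, T1.3, T1.5, T1.6, T2.1 to T2.4, T3.2 and T3.4) are called kept. The question was which transcripts persist and which are missing in a left-out oocyte once all libraries are compared at equal depth.

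Every oocyte came from a different crossbred nulliparous beef heifer whose cycle was synchronised with a gonadotrophin-releasing hormone (GnRH) analogue, a progesterone device and prostaglandin F2α, and none of the animals was FSH-stimulated. T1 oocytes were collected 24 h before ovulation (5 kept, 1 left out). T2 oocytes were collected 19-23 h after oestrus detection (4 kept, 0 left out), although their titles place the same hours before ovulation. T3 oocytes were collected 2 h before ovulation (2 kept, 3 left out). The study describes a second GnRH dose for a subgroup of animals slaughtered on the later day. Its wording does not settle whether T2 animals received that dose as well as T3 animals. The material came from earlier animal trials, and which trial an oocyte belongs to was not given in the sources used here. Status and time point were partly confounded, and the main pooled comparisons are given beside those within the 2 h oocytes.

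A fully grown oocyte is close to transcriptionally silent and lives on stored maternal messenger RNA. Oocyte-secreted proteins, cell cycle regulators for the meiotic divisions, and nuclear-encoded subunits of the respiratory chain are among the products of that store. Maturation brings deadenylation and decay of part of it and cytoplasmic polyadenylation of another part. The libraries were made with Smart-seq2, which captures messenger RNA by its poly-A tail and then amplifies the cDNA of a single cell. In counts, a transcript that the oocyte lacked cannot be told apart from one that was not captured. No molecular identifiers were used, so intervals and limits cover counting error only.

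Total counts on genes were 2874041, 620910, 271763 and 175263 in the left-out oocytes, against 824854 to 4894970 (median 2646223) in the 11 kept oocytes. T1.4 thus had more counts than the median kept oocyte, while the 3 left-out 2 h oocytes had fewer than any kept oocyte. All 15 were thinned at random to 175263 counts, the total of T3.5, and the values below are thinned counts unless stated otherwise. The study left oocytes out for a low number of counts inside genes in a SeqMonk quality plot and gives minimums of reads and expressed genes for those kept, so totals and gene numbers are described and not tested. The counts and gene numbers of T1.4, T3.1 and T3.3 exceed both minimums, and T3.5 has fewer genes than the minimum.

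At equal depth, T1.4 held 5100 genes with more than 1 count, T3.3 held 4603, T3.1 held 4050 and T3.5 held 2366. The kept oocytes ranged from 5715 (T1.2) to 7579 (T1.3) with a median of 6454, and the kept 2 h oocytes held 6118 (T3.2) and 5889 (T3.4). The groups did not overlap, with T1.4 closest to the kept range and T3.5 farthest from it. Without thinning the numbers were 7071, 4944, 5145 and 2366, against 8257 to 10898 in the kept oocytes. Counted as genes with at least 1 count, thinning took 1518 genes from T1.4, and 635 and 442 from the next pair, while T3.5 was left as deposited and the kept oocytes lost 1610 to 3020.

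**Figure D1:**
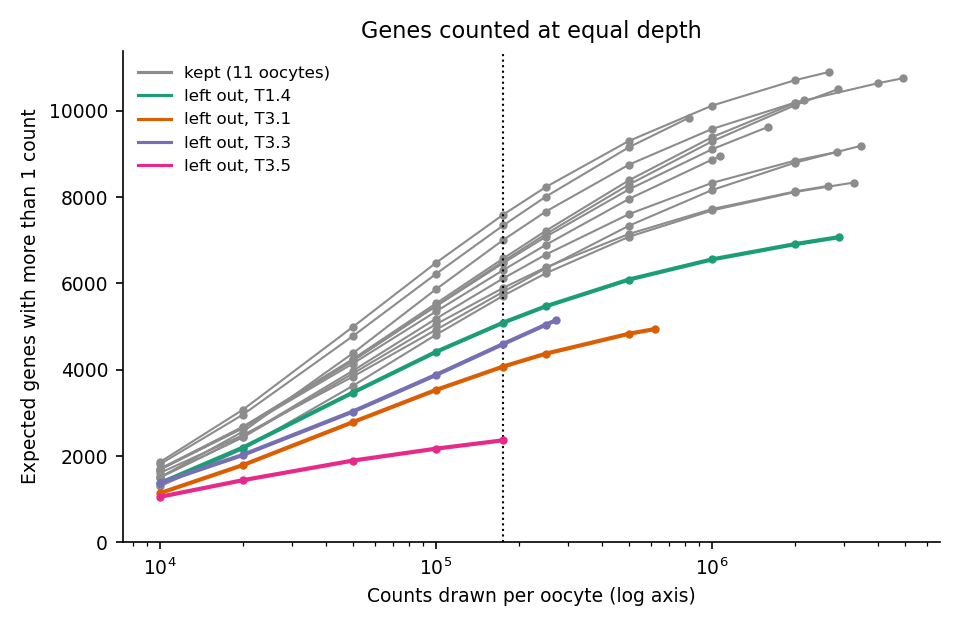
Expected number of genes with more than 1 count (y axis) when each oocyte is thinned to the number of counts on the x axis (log axis), with kept oocytes in grey and left-out oocytes in colour; the dotted line marks 175263 counts. At that line the 4 left-out oocytes lie between 2366 and 5092 genes and the 11 kept oocytes between 5716 and 7595.

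The counts of the left-out oocytes were on average concentrated in fewer genes. The 10 most abundant genes of each oocyte, chosen separately in each, took 29.8% of the counts in T3.1 (95% exact binomial interval 29.6 to 30.0%), 27.3% in T3.5 (27.1 to 27.5%), 15.5% in T1.4 (15.4 to 15.7%) and 13.6% in T3.3 (13.5 to 13.8%). In the kept oocytes the lowest, median and highest shares were 4.64%, 5.84% and 17.2%. T3.1 and T3.5 were above every kept oocyte, whereas T1.4 and T3.3 lay within the kept range. The mean was 21.5% ± 8.16 (SD, n = 4) against 8.55% ± 4.46 (SD, n = 11), a difference of 13.0 percentage points, and within 2 h before ovulation the difference was 11.0. These are given without a test, since such a share is tied to the number of genes detected. OOSP2 alone made up 18.8% of T3.1 (18.6 to 19.0%), and EIF1AX made up 7.80% of T3.5 (7.67 to 7.92%), while the leading gene of a kept oocyte took between 0.703% and 5.09%.

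**Figure D2:**
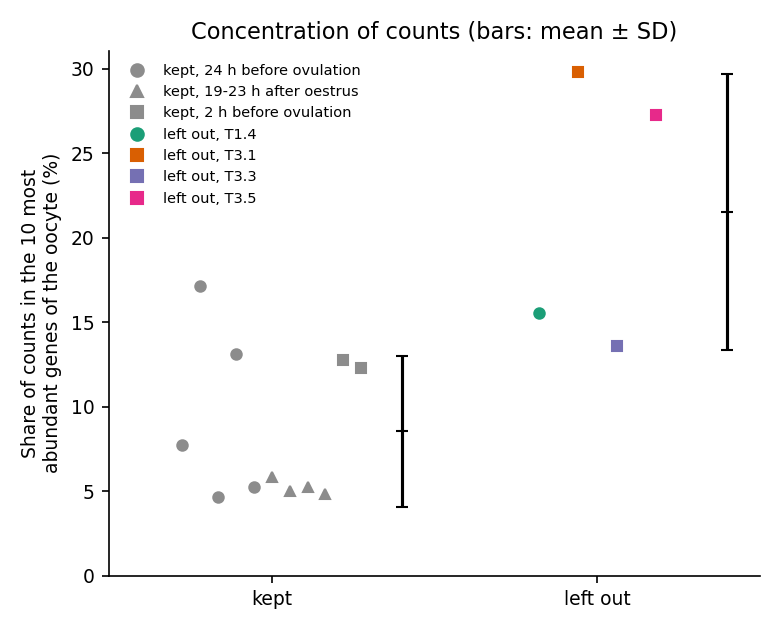
Share of thinned counts (y axis, %) in the 10 most abundant genes of each oocyte, with 1 point per oocyte, shape for time point, grey for kept and colour for left out; black bars are mean ± SD (8.55 ± 4.46, n = 11, and 21.5 ± 8.16, n = 4). T3.1 at 29.8% and T3.5 at 27.3% are above the highest kept value of 17.2%, and T1.4 and T3.3 are not.

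Loss followed abundance. Among about 299 genes with a mean of at least 100 counts in the kept oocytes, every kept oocyte, T1.4 and T3.3 had a count for all of them, whereas T3.5 had one for 88.5% and T3.1 for 94.1%. For genes with a mean of 20 to 50 counts, the kept oocytes detected 97.1% of the class or more, T3.3 97.2%, T1.4 94.7%, T3.1 80.8% and T3.5 55.9%. For genes with a mean of 5 to 10 counts these shares were 78.9 to 99.1% in the kept oocytes, 71.4% in T1.4, 69.7% in T3.3, 50.6% in T3.1 and 23.6% in T3.5. In the class with a mean of 0.5 to 2 counts, 33.0 to 62.4% of the genes had a count in a kept oocyte, against 24.5% in T1.4, 18.6% in T3.3, 18.1% in T3.1 and 7.39% in T3.5. T1.4 and T3.3 thus met the kept range in the most abundant class and were below it among scarce transcripts, while T3.1 and T3.5 were below it in every class shown. The means that define a class were taken without the oocyte being described, and for a left-out oocyte the shares are averaged over all sets of 10 kept oocytes. Random (Poisson) sampling at these means would detect 61.8% of the class of 0.5 to 2 counts and 99.8% of that of 5 to 10. The kept medians there were 45.0% and 92.7%, so kept oocytes fell short of it too.

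**Figure D3:**
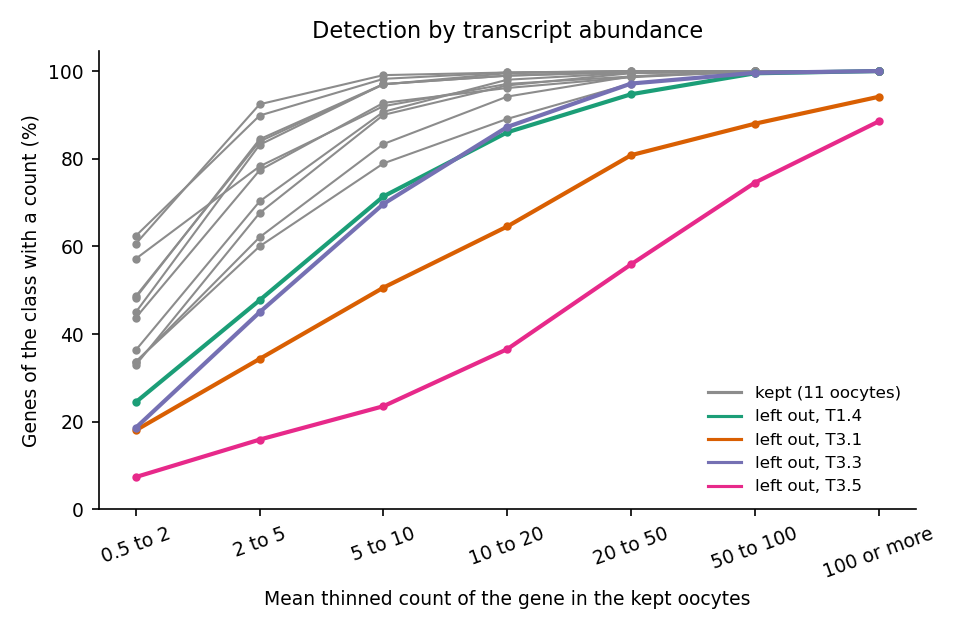
Share of genes with at least 1 thinned count (y axis, %) in classes of the mean thinned count in the kept oocytes (x axis), with 1 line per oocyte, kept in grey and left out in colour. In the top class T1.4 and T3.3 have every gene, T3.1 has 94.1% and T3.5 has 88.5% of them.

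A common set of transcripts again put T3.5 lowest and T3.1 next. Of the genes counted in all other kept oocytes, about 3935, a kept oocyte had a count for 91.4% (T1.2) to 99.7% (T1.3), T3.3 for 88.6%, T1.4 for 88.1%, T3.1 for 72.9% and T3.5 for 48.4%. Held to the 2 h group alone, 5622 genes had a count in both kept 2 h oocytes, and T3.3 had a count for 76.6% of them, T3.1 for 60.6% and T3.5 for 39.8%. T1.4 detected 78.8% of that set and the 9 kept oocytes of other time points 84.8 to 96.1%. So the 3 left-out 2 h oocytes detected less of the 2 h set than any oocyte from another time point.

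Exactly 3825 genes were counted in all 11 kept oocytes. Of these, 1395 (36.5%) were also counted in all 4 left-out oocytes, 1409 (36.8%) in 3, 719 (18.8%) in 2, 258 (6.75%) in 1 and 44 (1.15%) in none. The median of the mean kept count fell along the same order, from 39.3 over 19.1, 10.7 and 7.73 to 6.14. T3.5 lacked 1947 of the 3825 genes, T3.1 lacked 1007, T1.4 lacked 431 and T3.3 lacked 412. T1.4 and T3.5 had 349 missing genes in common, 81.0% of those missing in T1.4 and 17.9% of those missing in T3.5. T1.4 and T3.3 had 97 in common, 22.5% and 23.5% of each. T3.3 and T3.5 had 312 in common (75.7% of those missing in T3.3), and T3.1 and T3.5 had 624 (62.0% of those missing in T3.1). T3.1 had 192 in common with T3.3 (46.6% of those missing in T3.3) and 183 with T1.4 (42.5% of those missing in T1.4). Beside these shares, T3.5 detected 49.1% of the 3825 genes, T3.1 73.7%, T1.4 88.7% and T3.3 89.2%, and each lacked the remainder. The missing genes in common were not matched for abundance. For counts mainly in left-out oocytes, 0 genes had a count in all 4 left-out and no kept oocyte. Another 2 genes, neither with a symbol, had one in at least 3 left-out and at most 1 kept oocyte. These rules are not the mirror image of loss, since they need nearly all 11 kept oocytes, which hold more genes, to lack a count. The numbers are therefore not compared.

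The oocyte label was checked on the 5 of 15 marker symbols that could be matched. OOSP2, an oocyte-secreted protein, was counted in all 15 oocytes, as was KPNA7, an oocyte nuclear import receptor, at 51, 240, 107 and 97 against 34 to 275 in the kept oocytes. FIGLA, an oocyte transcription factor, was at 624, 1, 332 and 89 against 3 to 524, and so below the kept range in T3.1 and above it in T1.4. NLRP5, of the subcortical maternal complex, was at 4, 0, 26 and 6 against 2 to 24, and NOBOX, another oocyte transcription factor, was at 0, 0, 1 and 2 against 0 to 7. Oocyte markers summed to 1226, 33167, 5890 and 911 in the left-out and 536 to 2756 in the kept oocytes, OOSP2 being the largest part in T3.1, T3.3 and T3.5. Of the cumulus and granulosa markers 2 of 22 could be matched, STAR and CD44, and they summed to 22, 6, 7 and 4 in the left-out oocytes against 13 to 74 (median 37) in the kept ones. All 4 left-out sums were below the kept median, and those of the 3 left-out 2 h oocytes were below every kept oocyte. A part of these cells in the other differences was not tested. CSF1R, the only one of 15 leukocyte markers matched, was at 9 in T3.3 and 0 in the other left-out oocytes, against 0 to 9. Theca and erythrocyte markers had no matched symbol.

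The 5 named genes with the most counts in the kept oocytes went different ways. GSTM3, a glutathione transferase, was at 5682 in T1.4, 4426 in T3.3 and 6440 in T3.5, within the kept range of 244 to 8925 (median 1115), but at 11 in T3.1. PRDX1, a peroxiredoxin, was at 1960, 13, 245 and 160, against 93 to 2513 (median 156) in the kept oocytes, so only T3.1 lay outside. The kept 2 h oocytes had 922 (T3.2) and 785 (T3.4) counts of PRDX1, above all 3 left-out 2 h oocytes. SKP1, a ubiquitin ligase subunit, was at 1734, 267, 915 and 196, with a kept range of 210 to 1473 that T1.4 exceeded and T3.5 fell short of. The other 2, OOSP2 and EIF1AX, passed the test across all oocytes and are described with it.

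Some transcripts were chosen for their small spread, so their steadiness follows from the choice and is only described. At least 10 counts in all 15 oocytes were found for 414 genes, 103 of them with a symbol, and the 10 named ones with the smallest SD of log2 CPM (counts scaled to library size, prior count 2) were CCDC186, TOP2B, KIF20B, KIF3A, CRK, GCC2, MPHOSPH9, GPBP1, CENPF and RRAS2. Their SDs ran from 0.41 (CCDC186) to 0.58 (RRAS2) over the 15 oocytes. KIF20B, a kinesin of cell division, was at 375, 285, 384 and 402 against 197 to 840 (median 592) in the kept oocytes. CENPF, a kinetochore protein, was at 280, 616, 678 and 575 against 255 to 897. TOP2B, a DNA topoisomerase, was at 61, 72, 95 and 79 against 34 to 112. KIF3A, a microtubule motor, was at 244, 156, 257 and 186 against 108 to 437. For these 10 genes the left-out values lay inside the kept range except for CCDC186 and GCC2 in T3.1 and T3.5 and RRAS2 in T3.1, which were below it. T3.5, the poorest library, still held 42 (CCDC186) to 575 (CENPF) counts of each.

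**Figure D4:**
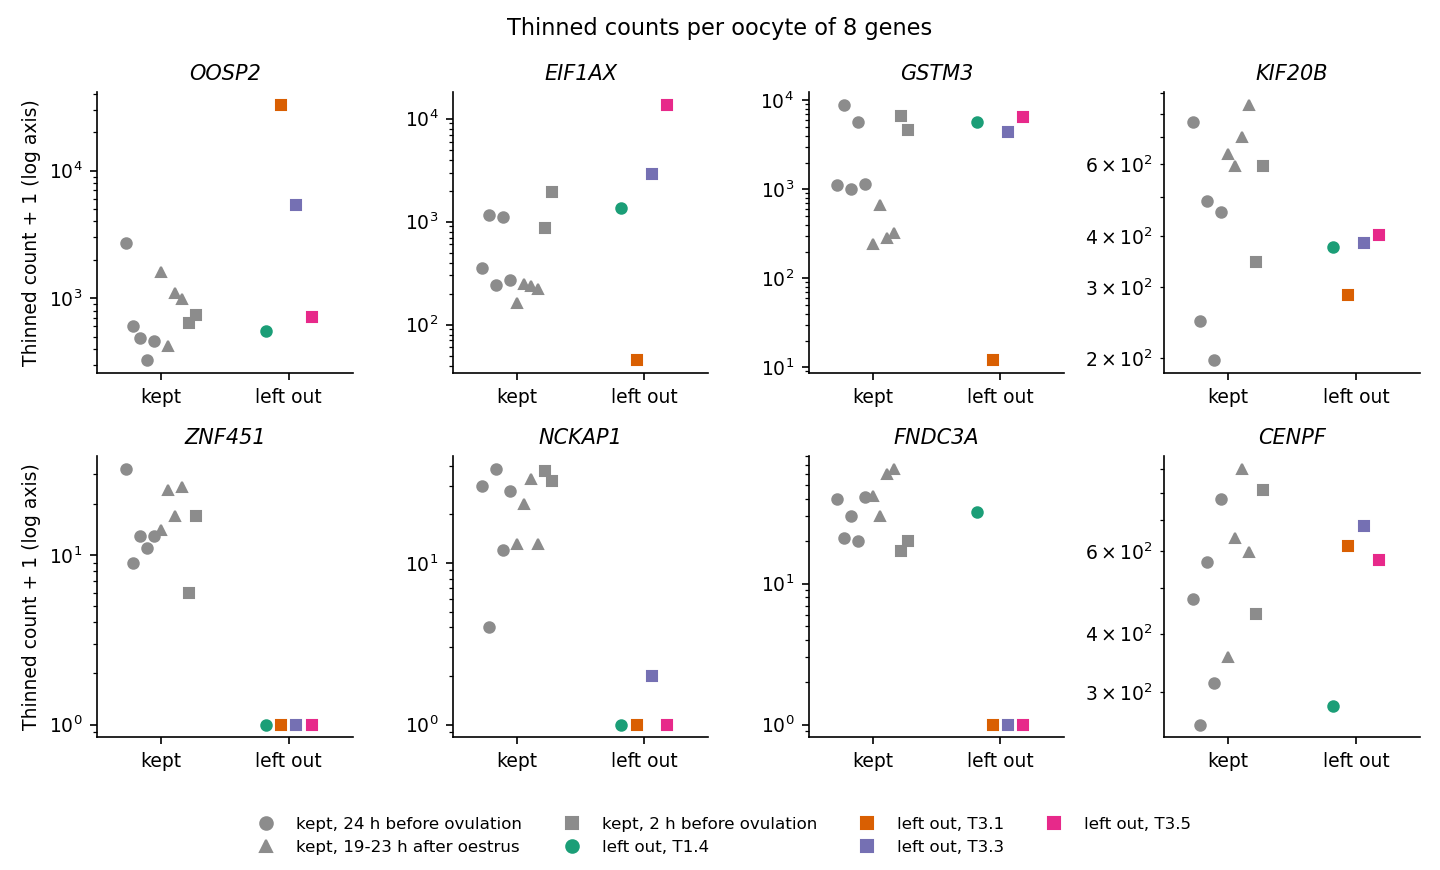
Thinned counts plus 1 (y axis, log axis, a scale per panel) of 8 genes in each oocyte, with shape for time point, grey for kept and colour for left out. OOSP2 peaks at 32926 in T3.1 and EIF1AX at 13663 in T3.5, GSTM3 drops to 11 in T3.1 alone, ZNF451 and NCKAP1 are at 0 or 1 in all 4 left-out oocytes, FNDC3A is at 0 in the 3 left-out 2 h oocytes, and KIF20B (197 to 840) and CENPF (255 to 897) are high in all 15.

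Across all oocytes, 169 of 3952 genes tested (4.28%) passed the quasi-likelihood test of edgeR (Benjamini-Hochberg adjusted p under 0.05, and a difference beyond 1.5 on the log2 scale either way). Of these, 67 (1.7%) were higher and 102 (2.58%) lower in the left-out oocytes, and 7 and 22 of them had a symbol. The median log2 fold change of all genes tested was -0.13 with TMM scaling and -0.64 with library size alone, which moved the split to 25 higher and 193 lower. The balance was the opposite without a filter (232 higher, 148 lower) and without T3.5 (132 higher, 87 lower). Without the 4 kept 19-23 h oocytes, which have no left-out counterpart, 0 genes passed (400 at an unadjusted p under 0.05), and with time point as a term 3 passed, all lower. Without the 19-23 h oocytes the differences moved little for several named genes, such as NCKAP1 (log2 -5.53 and then -5.70), OOSP2 (4.14 and 4.06) and RALGPS2 (1.76 and 1.99). EIF1AX moved more (3.12 and 2.54). Fewer oocytes entered that fit, and its common dispersion was 0.828 in place of 0.704. The number of oocytes and the time point cannot be told apart in its loss of calls. The fit with time point as a term kept every oocyte, at a common dispersion of 0.660, and EIF1AX was at 1.86 there. The count also depended on single oocytes, at 523 without T1.4, 357 without T3.3, 219 without T3.5 and 189 without T3.1, and at 88 to 167 when 1 kept oocyte was left out.

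More than 50% of the left-out counts came from a single oocyte for 54 of the 67 higher genes (80.6%), for 60 of the 102 lower genes (58.8%) and for 70.0% of all genes tested. Among the higher genes T3.1 was the highest left-out oocyte for 42, T3.3 for 14, T3.5 for 11 and T1.4 for 0. Only 2 of the 67 had left-out and kept oocytes that did not overlap. Of all genes tested, 2.91% did not overlap in either direction, and 0.0759% had all left-out above all kept oocytes.

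OOSP2 (ENSBTAG00000027348), whose product the oocyte secretes, was at 547, 32926, 5424 and 717 in the left-out oocytes, against 325 to 2697 (median 635) in the kept oocytes. T3.1 and T3.3 were above every kept oocyte and T1.4 and T3.5 were within the range. The log2 fold change was 4.14 ± 0.79 (SE, adjusted p = 0.00967, edgeR), and 1.84 (adjusted p = 0.0987) without T3.1. Within 2 h before ovulation, with 635 and 735 in the kept oocytes, it was 4.79 (adjusted p = 0.0874). With time point as a term it was 3.51 (adjusted p = 0.502, edgeR).

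EIF1AX (ENSBTAG00000017633), a translation initiation factor, was at 1362, 44, 2895 and 13663, against 161 to 1933 (median 269). T3.5 and T3.3 were above and T3.1 was below every kept oocyte. Its log2 fold change was 3.12 ± 0.83 (adjusted p = 0.0324, edgeR) and 1.55 (adjusted p = 0.334) without T3.5. Within 2 h the kept oocytes had 868 and 1933 counts, and the log2 fold change of 2.22 did not pass (adjusted p = 0.377). With time point as a term it was 1.86 (adjusted p = 0.562, edgeR).

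Of the other 5 named genes that passed as higher, ITGB1 and DHX58 rested on 1 oocyte, and USB1 and PFDN4 on T3.1 and T3.3. ITGB1, an integrin subunit, was at 59, 1052, 162 and 81 against 53 to 202, with a log2 fold change of 2.33 ± 0.61 (adjusted p = 0.0324, edgeR) that was 0.37 without T3.1. DHX58, a cytoplasmic RNA sensor, was at 4, 3, 10 and 94 against 0 to 13, and its log2 fold change of 2.69 ± 0.77 (adjusted p = 0.045, edgeR) was 0.54 without T3.5. Within 2 h their log2 fold changes were 3.54 and 4.32 and did not pass (adjusted p = 0.0819 and 0.121). USB1, an enzyme of U6 RNA processing, was at 6, 116, 88 and 1 against 1 to 22, and PFDN4, a subunit of the prefoldin chaperone, was at 55, 197, 237 and 78 against 12 to 120. Neither passed without T3.1 (log2 fold change 2.28 and 1.88, adjusted p = 0.0943 and 0.074, edgeR) or without T3.3 (2.61 and 1.67, adjusted p = 0.0529 and 0.105), and within 2 h the values were 4.96 and 3.57 (adjusted p = 0.0819 and 0.0882, edgeR). RALGPS2, a guanine nucleotide exchange factor, was the most even, at 54, 37, 57 and 118 against 16 to 48 (log2 fold change 1.76 ± 0.48, adjusted p = 0.0374, and 1.36, adjusted p = 0.0604, without T3.5, and 2.34, adjusted p = 0.152, within 2 h, edgeR). With library size alone, OOSP2 (adjusted p = 0.0129) and EIF1AX (0.0304) still passed in edgeR and the other 5 did not (0.0539 to 0.143), all 7 keeping their direction. Without thinning, DHX58 (0.134), ITGB1 (0.064), PFDN4 (0.0863) and RALGPS2 (0.0857) did not pass in edgeR.

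Of the 102 lower genes, 34 were at 0 in every left-out oocyte, as were 38 of all 3952 genes tested, and 49 had left-out and kept oocytes that did not overlap, where 2.83% of all genes tested had all left-out below all kept oocytes. The kept 19-23 h oocytes had the highest mean of the kept time points for 64.7% of the lower genes, 73.1% of the higher genes and 53.0% of all genes tested. A gene at 0 in every left-out oocyte passed the low-count filter through the kept oocytes alone, and the 38 share this condition. The 34 and the 38 are therefore only described, and the adjusted p of each such gene below carries the same limit. Lower genes with few left-out counts, such as NCKAP1, PIK3CA, TMEFF1, VPS13A, SMG1, CCNT2, SPRY2 and ERCC6L, also met the filter through their kept counts. Their adjusted p carries this limit too. For a gene at 0 the fold is given as a lower bound, with 3 counts over the 4 oocytes as the limit that 0 allows.

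ZNF451 (ENSBTAG00000018879), a zinc finger protein of the SUMO pathway, was at 0 in each left-out oocyte and at 5 to 31 (median 13) in the kept oocytes. The groups did not overlap, and the left-out oocytes were at least 20.6-fold lower (adjusted p = 0.0094, edgeR). All 4 also had 0 deposited counts before thinning, among them T1.4 with its 2874041. Within 2 h, where T3.2 had 5 and T3.4 had 16, it passed as well (at least 10.5-fold lower with 3 counts over the 3 oocytes as limit, adjusted p = 0.0469). UBR1, a ubiquitin ligase of the N-degron pathway, was likewise at 0 in the 4 left-out oocytes, before thinning too, and at 2 to 29 (median 13) in the kept ones (at least 16.5-fold lower, adjusted p = 0.0144, and 0.125 within 2 h, edgeR).

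NCKAP1 (ENSBTAG00000033662), a subunit of the WAVE complex of actin assembly, was at 1 in T3.3 and 0 in the other left-out oocytes, against 3 to 37 (median 27) in the kept oocytes. The groups did not overlap, and the kept mean was 91.6 times the left-out mean (95% counting interval 16.3 to 3634). It was the only named gene among the 3 that passed with time point as a term (adjusted p = 0.042, edgeR), and it passed within 2 h (adjusted p = 0.0401), where T3.2 had 36 and T3.4 had 31. All 3 met the low-count filter through their kept counts, so each adjusted p carries the limit given above. ENSBTAG00000013579, at 0, 0, 1 and 0 against 8 to 41, and ENSBTAG00000014520, at 0, 0, 1 and 0 against 11 to 52, were the other 2. T1.4 had 6 and 12 deposited counts of them, so its 0 came from the random draw.

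The DNA damage kinase ATM was at 0 in the left-out oocytes before and after thinning, and at 0 to 23 (median 10) in the kept ones, where T1.2 and T1.5 also had 0 (at least 14.8-fold lower, adjusted p = 0.0327, edgeR). SRGN, the proteoglycan serglycin, was at 0 in all 4 and at 0 (T3.4) to 181 (T1.1) in the kept oocytes, the widest kept range of the group (adjusted p = 0.0324). SESN3, a stress-inducible sestrin, MDM1, a microtubule-binding protein, WNK3, a kinase of ion transport, and KCNH5, a potassium channel, were at 0 in the 4 left-out oocytes and at 0 in T1.2 too, with kept maxima of 17, 20, 17 and 28 and an adjusted p of 0.0215 each in edgeR. PIK3CA, the catalytic subunit of PI3 kinase, was at 1 in T3.3 and 0 in the others against 0 to 37 (median 20), and its adjusted p was 0.0215. Before thinning, T1.4 had 2 counts of KCNH5, 1 of WNK3 and 6 of PIK3CA, and T3.1 had 1 of WNK3. The zeros in those places came from the random draw. T1.2, the kept oocyte with the fewest genes, thus lacked 6 of these 10 transcripts. ATM and SRGN no longer passed without T3.1 (0.0513 and 0.0536) or without T3.5 (0.0547 and 0.0683), while the other 8 of the 10 passed without any 1 left-out oocyte. Within 2 h SESN3 passed (adjusted p = 0.0428, edgeR) and SRGN, KCNH5, ATM, MDM1, WNK3 and PIK3CA did not (0.0643 to 0.232).

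Among the further named genes that passed as lower, ELMOD2, a GTPase-activating protein, was at 11, 0, 1 and 0 against 14 to 81, and ERCC6L, a helicase of mitotic centromeres, was at 0, 2, 0 and 0 against 3 to 27, and neither overlapped with the kept oocytes. T1.4 had 1 deposited count of ERCC6L. CCNT2, a cyclin of transcription elongation, was at 2 in T3.3 and 0 in the others against 1 to 28, and SPRY2, an inhibitor of receptor tyrosine kinase signalling, was likewise at 2 in T3.3 and 0 in the others against 1 to 36, although T3.1 had 13 deposited counts of it, so its 0 came from the random draw. Within 2 h ELMOD2 passed (adjusted p = 0.0401, edgeR), and ERCC6L, CCNT2 (0.166 each) and SPRY2 (0.489, at a log2 fold change of -1.85 in place of -4.14) did not.

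The most abundant named transcripts counted in all 11 kept and at most 1 left-out oocyte were drawn from 302 such genes, 48 with a symbol. FNDC3A, a membrane protein with fibronectin repeats, was at 31 in T1.4 and 0 in T3.1, T3.3 and T3.5, against 16 to 64 (median 29). SLC9B1, a sodium/proton exchanger, was at 20 in T1.4 and 0 in the others against 1 to 43. SMG1, the kinase of nonsense-mediated decay, was at 5, 0, 0 and 0 against 4 to 60 (adjusted p = 0.0348, edgeR). TMEFF1, a transmembrane protein, was at 2 in T3.3 and 0 in the others against 7 to 57 (adjusted p = 0.0174, and 0.181 within 2 h), and VPS13A, a lipid transfer protein, was at 1 in T3.3 and 0 in the others against 1 to 46 (adjusted p = 0.0215, and 0.224 within 2 h). FNDC3A and SLC9B1 did not pass across all oocytes (0.305 and 0.497). Loss was not always shared by the 2 h oocytes. ATR, the partner kinase of ATM, was at 0 in 3 left-out oocytes and at 54 in T3.5, above the kept range of 4 to 30. HAUS2, of the spindle augmin complex, was at 23 in T3.1 and 0 in the others, with a kept range of 5 to 29, and FAM76B was at 53 in T3.1 and 0 in the others, with a kept range of 2 to 34. NCKAP1 and ZNF451 complete the 10. Some of these zeros came from the random draw. Deposited counts were 5 of TMEFF1 and 3 of FAM76B in T1.4, and 2 of SMG1 in T3.1. T3.3 had 4 of FAM76B, 2 of FNDC3A and 1 of HAUS2.

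Some abundant transcripts were missing from T3.1 and others from T3.5. Of the 298 genes with a mean of at least 100 counts over the 11 kept oocytes, 18 were at 0 in T3.1 (8 with a symbol), 33 at 0 in T3.5 (12 with a symbol) and 1 at 0 in both, and T1.4 and T3.3 had a count for all. The 8 named ones missing from T3.1, all printed here whatever their function, were MRPS18C and MRPS14 of the mitochondrial ribosome, ATP5IF1, the inhibitor of ATP synthase, PRDX4, an endoplasmic reticulum peroxiredoxin, PARK7, a redox sensor, RPS13 of the cytosolic ribosome, NUF2, a kinetochore protein, and JAG1, a Notch ligand. In the kept 2 h oocytes these ranged from 22 (JAG1 in T3.2) to 495 (PRDX4 in T3.4), and in T3.5 from 37 (RPS13) to 1673 (PRDX4). T3.1 had 9 deposited counts of PARK7, 3 each of PRDX4 and JAG1, and 2 of ATP5IF1, so the 0 of these genes came from the random draw. MRPS18C, MRPS14, NUF2 and RPS13 were at 0 in T3.1 before thinning too. The 12 missing from T3.5 were SERINC1, CDC27, N4BP2L2, BRCA2, PLEKHG1, TRIP11, DNTTIP2, PHF3, SNRPG, SAMD8, XPO1 and USP34. Among these, CDC27, a subunit of the anaphase-promoting complex, was at 98 in T3.1 and 97 in T3.3 and at 105 to 312 in the kept oocytes. BRCA2, of homologous recombination, was at 117 in T3.1 and 18 in T3.3 and at 79 to 309 in the kept oocytes. Under 0.1 of the kept mean were 80 of the 298 in T3.1, 63 in T3.5, 17 in T3.3 and 1 in T1.4, and over 10 times the kept mean were 4, 2, 0 and 0. In a kept oocyte set against the other 10, between 0 and 20 (T2.1) were under 0.1 of the mean and 0 were over 10 times the mean.

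Within the 2 h oocytes, 74 of 3952 genes (1.87%) passed for the 3 left-out against the 2 kept oocytes in the fit of all 15, 3 (0.0759%) higher and 71 (1.8%) lower. All 71 lower genes had left-out oocytes below both kept oocytes, as did 27.0% of all genes tested (30.2% did not overlap in either direction, and 3.19% were higher). At 0 in the 3 left-out oocytes were 41 of the 71. Such genes entered the test through other oocytes, and no share over all genes tested stands beside the 41, so it is only described. Of the 74 genes, 21 were also among the 169. The count was 104, 84 and 3 with 3 other random draws of the thinning, 0 with only the 5 oocytes in the fit (145 at an unadjusted p under 0.05), and 0 without any 1 of T2.2, T2.3, T2.4, T3.2 or T3.4, so single calls here were not stable. It was 685 without T3.3 and 258 without T3.5.

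Named transcripts at 0 in T3.1, T3.3 and T3.5 that passed within 2 h included PCP4, SMG1, PKIA, SLC9B1, NHS, FNDC3A, OGA, SESN3, MACO1, ZNF451 and SKA2. Before thinning, T3.1 had 2 counts of SMG1 and T3.3 had 2 of FNDC3A. PKIA, the inhibitor of protein kinase A, had 24 and 19 counts in T3.2 and T3.4 (at least 21.5-fold lower in the left-out oocytes with 3 counts over 3 oocytes as limit, adjusted p = 0.0401, edgeR), and T1.4 had 31. PCP4, a calmodulin-binding protein, had 17 and 29, and T1.4 had 39. OGA, which removes O-GlcNAc from proteins, had 13 and 19, and SKA2, of the kinetochore SKA complex, had 8 and 12. T1.4 kept 9 of these 11 transcripts, with 4 (OGA) to 39 (PCP4) counts, SESN3 and ZNF451 being the exceptions. Among transcripts with a residual count, CLOCK, the circadian factor, was at 1, 1 and 0 against 47 and 15, RICTOR, of the mTORC2 complex, was at 0, 0 and 1 against 30 and 15, and ESRRG, a nuclear receptor, was at 0, 1 and 0 against 13 and 26. T3.1 had 5 deposited counts of RICTOR and 4 of ESRRG, and T3.3 had 1 of RICTOR. ITPRID2 was the only named gene that passed as higher, at 94, 53 and 54 against 5 and 3 (log2 fold change 4.47 ± 1.06, adjusted p = 0.0401, edgeR), while T1.4 was at 7 and the other kept oocytes at 6 to 50.

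T1.4 alone against the 5 kept 24 h oocytes gave 0 called genes of 3952 (0%) in edgeR, 294 at an unadjusted p under 0.05 and 3 calls in DESeq2, with the single oocyte assumed to vary like the others. ZNF451, UBR1, ATM, NCKAP1 and SRGN had 0 deposited counts in T1.4 and adjusted p of 0.662 to 0.698 in this comparison. No gene passed a test of whether the 2 h difference and the 24 h difference were unequal in edgeR (524 at an unadjusted p under 0.05).

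Functional groups were followed through 162 named genes in 22 lists, of which 106 could be tested and 2 passed across all oocytes, OOSP2 and EIF1AX, and 0 within 2 h, beside 4.28% and 1.87% of all genes tested. These symbols come from a table of genes that the study found to differ between these oocytes and fully grown ones sliced from the ovarian cortex, so a list is not a whole pathway. Groups are described by their summed counts, which share 1 total and are free of the scaling factor.

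Transcripts of the respiratory chain were low in T3.1. The other left-out oocytes were within the wide kept range or above it, but T3.3 was below both kept 2 h oocytes for complex I, complex IV and ATP synthase, and T3.5 was below both for complexes I and III. The 9 named genes of complex I, which takes electrons from NADH, summed to 1401, 58, 631 and 675, against 70 to 1649 (median 291) in the kept oocytes and 943 and 1344 in the kept 2 h oocytes. T3.1 was below every kept oocyte, and the other 3 were above the kept median. NDUFA11, a complex I subunit, was at 221, 0, 284 and 228 against 8 to 244. The 3 genes of complex III, which passes electrons to cytochrome c, summed to 982, 29, 666 and 479 against 55 to 1244, with 640 and 1005 in the kept 2 h oocytes. The 5 of complex IV, cytochrome c oxidase, summed to 3334, 35, 1657 and 4052 against 138 to 3934, with T3.5 just above the range and 1687 and 3934 in the kept 2 h oocytes. There, COX6C was at 1747, 16, 819 and 1098 against 34 to 2432, and NDUFA4 was at 888, 2, 774 and 2635 against 81 to 905. The 11 of ATP synthase summed to 2197, 113, 679 and 1374 against 88 to 2235, with 1273 and 1734 in the kept 2 h oocytes, where T3.1 was above T2.1 alone. Of the 7, 3, 5 and 10 members tested, 0 passed. Their median log2 fold changes across all oocytes were 0.15 (complex I), 0.51 (complex III), 0.92 (complex IV) and 0.33 (ATP synthase), and within 2 h they were -1.44, -1.01, -0.96 and -1.60, beside -0.13 and -0.15 over all genes tested. The positive medians across all oocytes were not stable. Those of complex I and ATP synthase changed sign with library size alone (-0.10 and -0.02), with time point as a term (-0.44 and -0.19) and without T1.4 (-0.65 and -0.70), where that of complex IV was 0.07. With time point as a term the complex III median was below 0 too (-0.04). The complex I median was also below 0 without T3.3 (-0.05) and without thinning (-0.07).

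The same oocyte stood apart in the antioxidant and mitochondrial ribosome groups. The 6 antioxidant genes summed to 8577, 33, 5465 and 8498, against 440 to 12347 (median 1373), mostly GSTM3 outside T3.1. The 15 genes of the mitochondrial ribosome summed to 1063, 41, 1098 and 1480 against 154 to 1436 (median 335), so T3.1 was below and T3.5 above every kept oocyte. PRDX4 was at 760, 0, 572 and 1673 against 25 to 495, below the range in T3.1 and above it in the other 3. The 29 genes of the cytosolic ribosome summed to 4729, 416, 2208 and 3227 against 363 to 5483 (median 1123), with 2148 and 4379 in the kept 2 h oocytes. T3.1 was again low, though above T2.1, and 25 of the 27 cytosolic ribosomal genes that all kept oocytes had were counted in it, as were 26 in each of the other 3 left-out oocytes. Of the members that all kept oocytes had, T3.1 counted 3 of 7 for complex I, 3 of 6 for the mitochondrial ribosome, 3 of 6 for the proteasome, 6 of 8 for ATP synthase and 10 of 11 for the meiotic cell cycle, and T3.5 counted 7, 6, 3, 7 and 8, beside 73.7% and 49.1% of all genes that every kept oocyte had. These shares are not matched for abundance. Of the 5, 7 and 29 members tested, 0 passed. Their median log2 fold changes were 0.47, 1.18 and 0.68 across all oocytes and -0.35, 0.55 and -0.48 within 2 h. With time point as a term they were -0.17, 0.46 and 0.21, without T1.4 that of the cytosolic ribosome was 0.05, and without T3.5 that of the mitochondrial ribosome was 0.52.

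Low sums for these groups were also found in kept oocytes. The kept 19-23 h oocytes had complex I sums of 70 to 202 and antioxidant sums of 440 to 987, and T3.1 was nearer to these than to the kept 2 h oocytes. Over 3195 genes with a mean of at least 10 counts in the kept oocytes, the rank correlation of T3.1 was 0.52 with the mean of the kept 19-23 h oocytes, 0.34 with that of the kept 24 h oocytes and 0.25 with that of the kept 2 h oocytes. For T3.5 these were 0.24, 0.47 and 0.45, for T3.3 0.45, 0.56 and 0.48, and for T1.4 0.38, 0.70 and 0.69. T3.2 and T3.4 had correlations of 0.50 and 0.41 with the 19-23 h mean and 0.69 with each other, and of 0.79 and 0.72 with the 24 h mean. Kept 24 h oocytes could also be closer to the 19-23 h mean than to their own group, as T1.1 (0.82 and 0.55) and T1.6 (0.74 and 0.69) were, so such a likeness was not particular to T3.1. These are descriptions across genes, which are not independent and share the libraries' depth and amplification, and the number of oocytes behind each mean differs.

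Meiotic and decay transcripts were less uniform. The 13 genes of the meiotic cell cycle summed to 1336, 686, 747 and 828 against 664 to 1974 (median 1410), and the 3 left-out 2 h sums lay between those of the kept 2 h oocytes (1092 and 664). TPX2, a spindle assembly factor, was at 237, 129, 30 and 1 against 34 to 393, SMC3, a cohesin subunit, was at 293, 273, 62 and 43 against 49 to 301, and DLGAP5, a spindle protein, was at 188, 112, 308 and 629 against 117 to 434. TPX2 was below the kept range in T3.3 and T3.5, SMC3 in T3.5, and DLGAP5 in T3.1, while DLGAP5 was above it in T3.5. The 9 genes of maternal messenger RNA decay and polyadenylation summed to 86, 337, 102 and 26 against 93 to 259, above the range in T3.1 and below it in T1.4 and T3.5. CNOT6L, a deadenylase, was at 58, 136, 22 and 4 against 28 to 83, and PAN3, a subunit of another deadenylase, was at 15, 128, 34 and 0 against 4 to 44. Both were above the kept range in T3.1 and below it in T3.5, and CNOT6L was below it in T3.3 too. TUT7, a terminal uridylyltransferase, was at 2, 4, 5 and 4 against 10 to 47, without overlap (log2 fold change -2.24, adjusted p = 0.0624, and -1.05, adjusted p = 0.576, within 2 h, edgeR). Of the 10 and 6 members tested, 0 passed, with median log2 fold changes of -0.55 and -0.67 across all oocytes and -0.36 and 0.24 within 2 h, so the decay median changed sign there. Without T3.1 the decay median was -1.83.

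The remaining groups held fewer tested members. The 14 proteasome genes summed to 284, 50, 258 and 226 against 36 to 321, the 4 chaperone genes to 222, 32, 170 and 168 against 41 to 458, and the 7 cytoskeleton genes to 566, 64, 209 and 318 against 101 to 1214. T3.1 was thus below every kept oocyte for chaperones and cytoskeleton. The 8 translation factors summed to 1395, 147, 2971 and 13669 against 265 to 1945, EIF1AX being most of it outside T3.1. The 7 stress and apoptosis genes summed to 63, 113, 167 and 38 against 33 to 161, and 63 of the 167 in T3.3 were ATF3, an immediate stress factor that was at 0 in the other left-out and at 0 to 2 in the kept oocytes. The 12 genes of glycolysis and sugar catabolism summed to 29, 75, 49 and 20 against 20 to 147, the 3 germline regulators to 675, 241, 440 and 188 against 54 to 603, and the 2 genes of the subcortical maternal complex to 11, 1, 29 and 6 against 5 to 31. The only histone gene matched, MACROH2A1, was at 0 in the left-out and 0 to 3 in the kept oocytes.

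**Figure D5:**
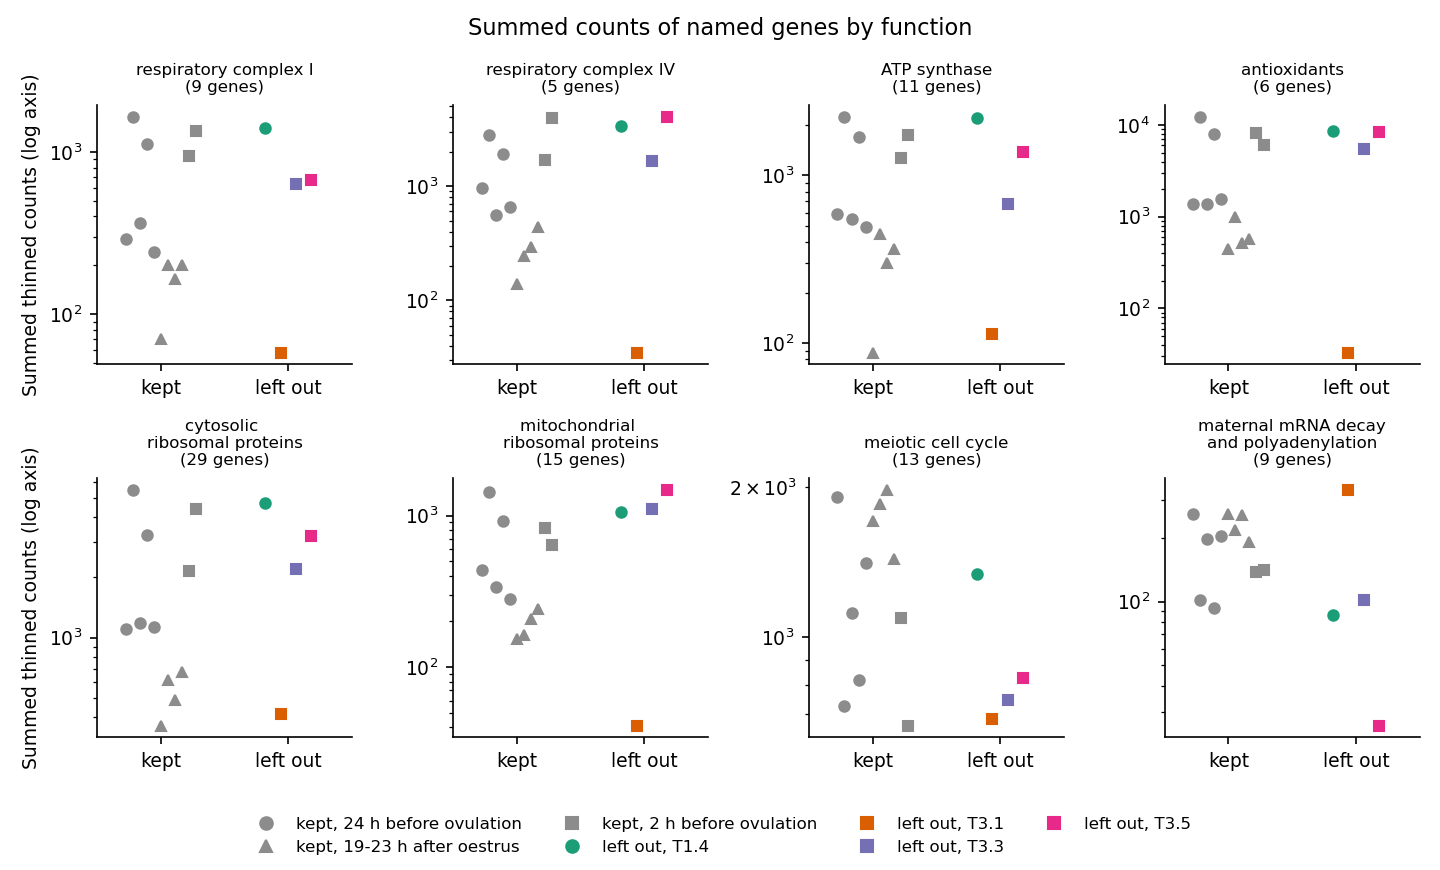
Summed thinned counts (y axis, log axis, a scale per panel) of the named genes of 8 functional groups in each oocyte, with shape for time point, grey for kept and colour for left out. T3.1 is the lowest of all oocytes for complex I (58), complex IV (35), antioxidants (33) and the mitochondrial ribosome (41), the other 3 left-out oocytes lie within or above the kept range there, and T3.5 is the lowest for messenger RNA decay (26).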

How the data were processed

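The authors sequenced Smart-seq2 libraries of single cumulus-free DF oocytes, trimmed the reads (Trim Galore, for which the sources give differing versions), aligned them with HISAT2 to ARS-UCD1.2 and deposited raw counts per gene from SeqMonk for 21218 genes. The annotation release, the strand setting and any removal of duplicates are not given in the sources used here. Oocytes were grouped by the study's list of samples after quality control and by the time points in the labels. Nothing states whether animals shared a batch.

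Counts were thinned once, without replacement, to 175263 per oocyte with a fixed seed (1 count is then 5.71 CPM). Differences were tested with edgeR 4.0.16 in R 4.3.3 (TMM scaling, low-count filter, quasi-likelihood test, Benjamini-Hochberg adjustment over all genes tested), once for left out against kept and once with a mean for each status and time point, which gave the 2 h and 24 h differences. DESeq2 1.42.0 was an alternative, and scipy 1.17.1 gave exact intervals. An exact test planned for the share of the 10 most abundant genes is not used, since that share is tied to the study's choice. For a gene at 0, 3 counts over the group set the bound. On simulated data of 3952 genes with 200 changed by 3 on the log2 scale, at a dispersion of 0.704, that of the first fit, the comparison of 4 with 11 oocytes recovered 60%, the 2 h comparison 0% and the T1.4 comparison 6%. The second fit had a dispersion of 0.600, which was not simulated.

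Gene symbols came from pairs of identifier and symbol in the study's own gene tables, which list genes that differed from fully grown cortical oocytes. They named 1741 genes (8.21%), and 1 symbol damaged by a spreadsheet is not printed. Genes were named by rule: the 5 most abundant in the kept oocytes, up to 10 called in each direction with the largest fold, the 10 most abundant lost, the 10 steadiest, and up to 3 per list. The genes at 0 in T3.1 or T3.5, the further genes called within 2 h and single list members outside that rule were named after their values were seen. Members and lists were chosen with earlier results of these data known.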

Additional observations from a re-analysis of the deposited data

Results flagged for a closer look

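In 66 combinations of a group of 4 to 10 oocytes and a measure or named gene, 9 had 1 oocyte whose gap to its neighbour took up most of the group's range, where chance gives about 1 in 20 groups. Genes named for a large called fold were chosen on their left-out values, so that chance does not apply to them among the left-out oocytes. Among the 4 left-out oocytes these were OOSP2 in T3.1 (32926 thinned counts), ITGB1 in T3.1 (1052), DHX58 in T3.5 (94), and NCKAP1 and PIK3CA in T3.3 (1 each, with 0 in the others, which meets the criterion by construction, so the chance given does not apply to these). Among the kept oocytes they were OOSP2 in T1.1 (2697) and ZNF451 in T1.1 (31) within the 24 h group, and SRGN in T2.4 (96) and the share of common genes detected in T2.1 (97.1%, the lowest) within the 19-23 h group. No cause was tested.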

How the results depend on the processing

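The number of genes called across all oocytes was 169, and it was 410 without thinning, 616 in DESeq2, 396 with a likelihood ratio test, 380 without a filter, 3 with time point as a term, 69 with time point as a term and no thinning (added after seeing the data) and 0 without the 19-23 h oocytes. Leaving out 1 oocyte gave 88 to 523. Within 2 h the 74 became 200 without thinning, 104, 84 and 3 with other thinning seeds, 449 in DESeq2, 389 with a likelihood ratio test, 162 with library size alone and 0 with only 2 h oocytes fitted, and leaving out 1 oocyte gave 0 to 685. For T1.4 the 0 became 3 in DESeq2. The difference in genes detected was -2453 at more than 1 count, -3130 above 0, -1543 at 5 or more and -4723 without thinning. The difference in the share of the 10 most abundant genes was 11.0 percentage points within 2 h. The cause of these shifts was not tested. Of the alternatives run for the 17 named genes called across all oocytes with the largest folds, 72 kept their side of the threshold, 47 lost it and 0 reversed. No paired analysis was possible because each replicate number belongs to 1 animal. Mitochondrially encoded genes had no matched symbol and are not reported. The common depth limits all oocytes, since a transcript of a few thinned counts can be drawn as 0. From 100000 to 175263 counts T3.5 went from 2172 to 2366 genes and T3.3 from 3880 to 4598.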
